A study of Mus musculus with 28 samples.

Results

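The 10 replication licensing factors Orc1, Cdc6, Cdt1, Gmnn and Mcm2 to Mcm7 were examined across 28 microarrays of mouse embryonic fibroblasts (MEFs) exposed to oxidative stress or to doxorubicin. Members were all probe sets whose single gene symbol is one of these 10 names, which gave 17 of the 45037 probe sets tested and 10 of the 17097 genes with a single symbol. For each gene the probe set with the highest mean over the arrays is described, and its other probe sets are given beside it. Values are deposited log2 expression levels, so a difference of 1 is a doubling, and levels of different probe sets are not set against each other.

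The arrays held WT, p66KO and p53KO MEFs. p66KO cells lack p66, the largest protein product of Shc1, and p53KO cells lack the tumour suppressor p53. All were primary fibroblasts of 13.5-day embryos at passage 2, from independent RNA preparations, with no statement of which preparations came from the same embryo, so p-values measure the spread between preparations. The labels give the strain as C57Bl/6, which is not the background that the study's methods name for the arrays. Of each genotype there were 4 untreated arrays and 4 arrays after 400 µM H2O2 (exposure 4 h), and of WT and p66KO also 2 arrays each after 0.25 µg/ml doxorubicin (Doxo, 4 h). Of 12 fibroblast markers, 10 were above the array median on every array, with mean log2 levels from 12.9 (Vim) down to 5.64 (Pdgfra) and 5.1 (Col1a2). Of 8 macrophage markers 6 were, and mean levels were 9.75 for Lyz2, 6.33 for Csf1r and 4.22 for Ptprc. So were 4 of 6 epithelial markers, with mean levels of 7.12 for Krt19 and 7.01 for Krt18. The same held for 2 of 6 skeletal muscle, 2 of 5 neural and 1 of 6 endothelial markers.

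A licensed origin is a replication origin that has been loaded with the Mcm helicase before S phase. The origin recognition complex, with Orc1 as its largest subunit, marks the site, Cdc6 and Cdt1 bring in the ring of Mcm2 to Mcm7, and geminin (Gmnn) binds Cdt1 in S and G2 phase so that no origin is loaded again. Most of these genes are known targets of the E2F factors, are transcribed in late G1 and S phase, and are low in cells that have left the cell cycle. In bulk RNA, fewer cells in S phase and less of a transcript per cell cannot be told apart.

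Promoter windows from 250 bases before to 50 bases after the start were read from RefSeq (GRCm38.p6) for 8 of the 10 members, all but Mcm4 and Gmnn. Those of Orc1, Cdc6, Cdt1, Mcm5 and Mcm7 are shown because these genes carry the differences described next. The windows are chr4:108579204-108579503 (plus strand) for Orc1, chr11:98907901-98908200 (plus) for Cdc6, chr8:122567765-122568064 (plus) for Cdt1, chr8:75109259-75109558 (plus) for Mcm5 and chr5:138171834-138172133 (minus) for the first of the pair of Mcm7 windows. They are written 5′ to 3′ along the gene, and capitals mark E2F letters, which are TTTCCCGC, TTTGGCGC, TTTCGCGC or TTTGCCGC on either strand.
Orc1: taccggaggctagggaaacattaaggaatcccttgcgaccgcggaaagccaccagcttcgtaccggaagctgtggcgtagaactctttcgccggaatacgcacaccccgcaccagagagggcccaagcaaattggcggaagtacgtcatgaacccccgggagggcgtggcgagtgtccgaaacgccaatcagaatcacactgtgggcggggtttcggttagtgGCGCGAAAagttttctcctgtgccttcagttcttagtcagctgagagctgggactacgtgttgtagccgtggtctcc
Cdc6: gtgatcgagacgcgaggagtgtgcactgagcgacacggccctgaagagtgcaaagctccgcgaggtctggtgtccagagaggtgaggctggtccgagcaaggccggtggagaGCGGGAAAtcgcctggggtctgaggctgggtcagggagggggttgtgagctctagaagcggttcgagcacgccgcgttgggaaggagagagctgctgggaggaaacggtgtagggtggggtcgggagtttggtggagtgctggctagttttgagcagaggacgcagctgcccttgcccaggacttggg
Cdt1: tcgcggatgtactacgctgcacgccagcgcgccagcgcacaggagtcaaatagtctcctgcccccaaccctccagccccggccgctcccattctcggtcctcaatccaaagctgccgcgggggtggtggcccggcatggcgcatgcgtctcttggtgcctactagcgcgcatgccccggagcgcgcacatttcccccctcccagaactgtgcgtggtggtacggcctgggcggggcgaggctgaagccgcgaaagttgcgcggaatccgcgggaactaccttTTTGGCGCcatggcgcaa
Mcm5: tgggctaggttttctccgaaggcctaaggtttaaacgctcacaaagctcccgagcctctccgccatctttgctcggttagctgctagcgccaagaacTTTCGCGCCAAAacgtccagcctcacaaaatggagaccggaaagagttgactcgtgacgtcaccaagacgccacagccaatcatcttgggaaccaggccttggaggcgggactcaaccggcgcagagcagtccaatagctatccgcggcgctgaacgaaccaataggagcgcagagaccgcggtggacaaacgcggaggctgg
Mcm7: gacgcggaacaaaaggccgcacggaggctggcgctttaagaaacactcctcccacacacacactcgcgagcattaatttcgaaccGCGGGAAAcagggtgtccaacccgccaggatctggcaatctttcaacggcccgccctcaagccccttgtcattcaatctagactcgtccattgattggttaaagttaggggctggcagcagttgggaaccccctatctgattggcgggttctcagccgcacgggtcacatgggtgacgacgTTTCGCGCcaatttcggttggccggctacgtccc

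E2F letters were present in the windows of 7 of the 8 members, all but Mcm2, against 2.6% of the 27025 genes with a window. In Orc1 the match began 27 bases before the start (−27), in Cdc6 at −138, and in Cdt1 at base 33 after the start. In Mcm7 the matches began at −165 and at base 17 after the start, and the second Mcm7 window held none. The Mcm7 match at base 17 shares its last base with CCAAT letters that begin at base 24. In Mcm5 the letters TTTCGCGC at −153 and TTTGGCGC at −149 overlap on opposite strands, and Mcm6 has a like overlapping pair. The letters CCAAT stood in 6 of the 8 members against 41.1% of genes, and the letters TTTGAA, known from cell cycle promoters, in 1 (Mcm2) against 20.2%. A match of letters is a description and not a binding site.

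Across the 8 groups, the means of Cdc6 spanned 1.61 log2 units, those of Mcm5 1.44, of Cdt1 1.31, of Mcm2 1.26, of Mcm4 1.16 and of Mcm7 1.12. The spans of Orc1 (0.88), Gmnn (0.85), Mcm3 (0.63) and Mcm6 (0.58) were smaller. The members did not share a single order of groups. WT H2O2 arrays had the lowest mean of Cdc6, Orc1, Mcm2 and Gmnn, p66KO Doxo arrays the highest mean of Mcm2, Mcm3, Mcm5 and Mcm7, and Doxo arrays the lowest mean of Mcm4. Most neighbours in these orders overlapped in their arrays. Within groups, the members moved together from array to array: over the 28 arrays, the correlations of the 45 member pairs, taken after removal of the group means, had a median r of 0.81 and ranged from 0.081 to 0.967. These points share array, preparation and scaling. Replicates 3 and 4, which had lower levels of the lys hybridisation control (3.01 to 4.15) than replicates 1 and 2 (4.97 to 5.94), had higher levels of 9 of the 10 members, by up to 0.43 from the group mean for Cdc6, and lower ones of Mcm4 by 0.02.

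**Figure D1:**
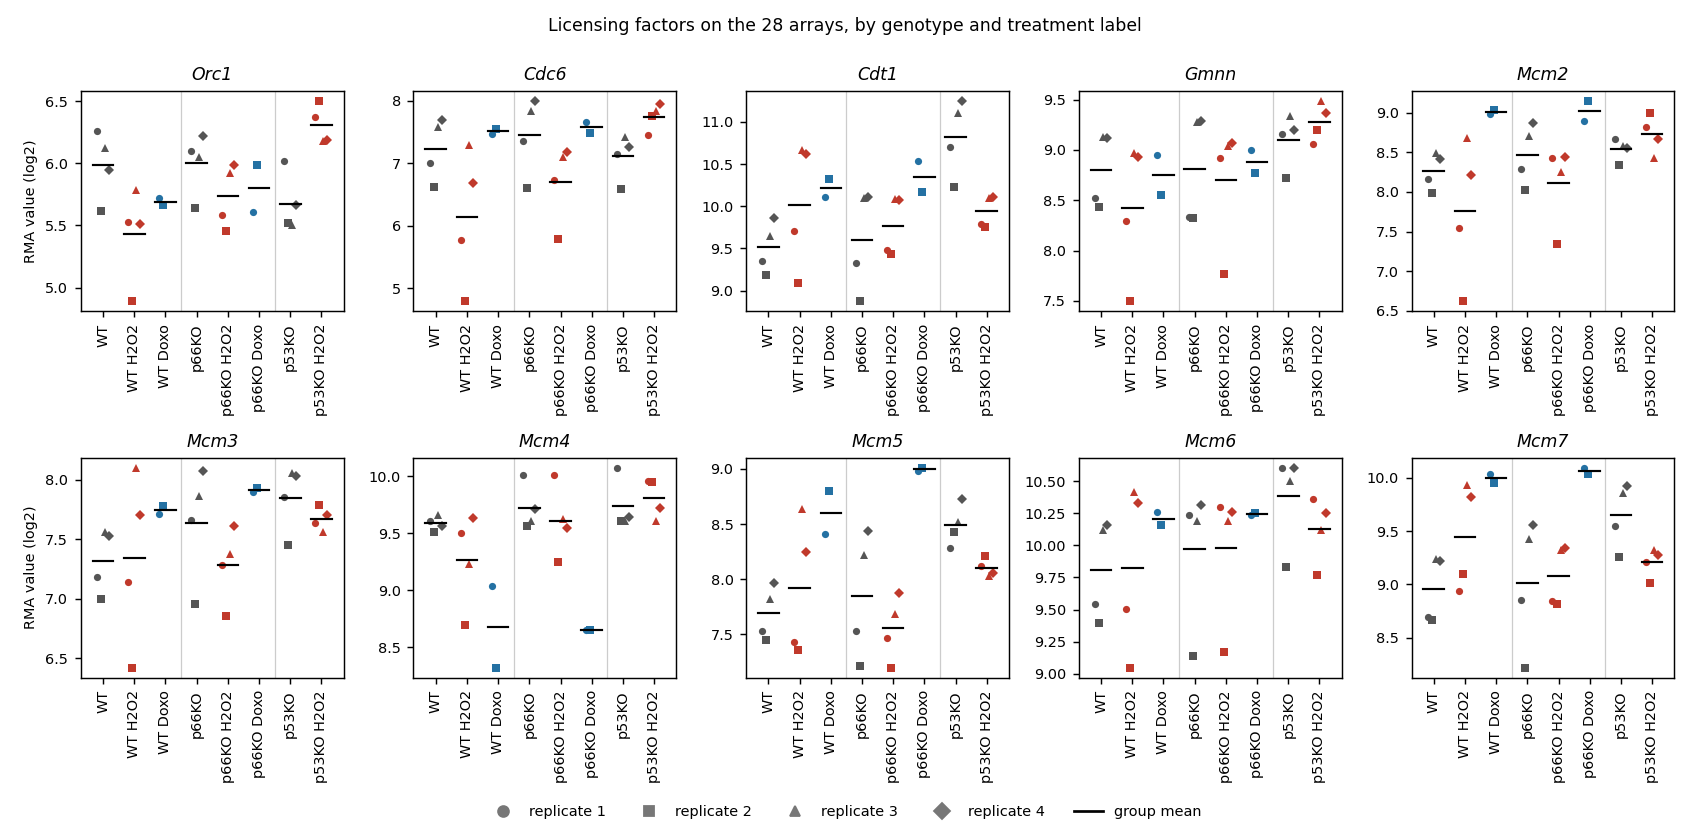
Log2 level of the 10 members on each of the 28 arrays, with the 8 groups on the horizontal axis, points for arrays and bars for group means. Among the groups of 4 arrays WT H2O2 has the highest SD for 9 of 10 members (p66KO untreated for Mcm7), with Cdc6 from 4.79 to 7.29. The Mcm4 panel shows the Doxo arrays between 8.32 and 9.04 and all other groups' means at 9.26 or above. The lowest WT H2O2 array, at 8.70, lies within the range of the Doxo arrays.

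The first question was how H2O2 changed the licensing factors in WT MEFs. The loading factor Cdc6 and the origin subunit Orc1 were lower after H2O2 in all 4 pairs of replicates, and the helicase subunit Mcm7 was higher in all 4. In the fit of group means none of the 10 passed limma's adjusted p of 0.05, against 3.66% of all probe sets. At an unadjusted p under 0.05 there were 2 (12.4% of probe sets), Cdc6 and Orc1, and the test without moderation called 0 (3.17%). The replicate numbers were taken to pair untreated with H2O2 arrays. With each pair as a block the adjusted p passed for 3 of 10 members: Cdc6 and Orc1 lower (3.92% of probe sets lower), and Mcm7 higher (3.43% higher).

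Cdc6, the ATPase that loads the helicase, had log2 levels of 7.0, 6.62, 7.58 and 7.70 on the untreated WT arrays and of 5.76, 4.79, 7.29 and 6.68 after H2O2. The 2 sets overlap, because H2O2 replicates 3 and 4 stood above untreated replicate 2. The mean difference was −1.09 ± 0.41 (SE, n = 4 and 4, 2.13-fold lower, limma adjusted p = 0.19, with the replicate block 0.0049), and the paired differences ran from −1.83 to −0.28. Orc1, which binds the origin, was at 6.26, 5.62, 6.12 and 5.95 untreated and at 5.53, 4.89, 5.78 and 5.51 after H2O2. Its arrays overlap only where H2O2 replicate 3 exceeds untreated replicate 2. The difference was −0.56 ± 0.18 (SE, n = 4 and 4, limma adjusted p = 0.095, with the block 0.021), and the second Orc1 probe set showed 0.05. That second probe set varied little in every group (span of group means 0.18). In replicates 1 and 2 alone the differences were −1.53 for Cdc6 and −0.73 for Orc1, and in replicates 3 and 4 alone −0.65 and −0.39, none of which passed. Without WT H2O2 replicate 3 the unblocked differences passed for both genes (Cdc6 −1.48, limma adjusted p = 0.035, Orc1 −0.68, 0.043), and without WT untreated replicate 2 that of Orc1 did (−0.68, 0.046). Without WT H2O2 replicate 2, the lowest array, the differences shrank to −0.64 for Cdc6 (0.56) and −0.38 for Orc1 (0.35).

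Mcm7, one of the subunits of the helicase core, was at 8.69, 8.66, 9.24 and 9.22 untreated and at 8.93, 9.10, 9.93 and 9.82 after H2O2. Each H2O2 array lay above its own untreated partner, by 0.24 to 0.69. The difference was 0.49 ± 0.25 (SE, n = 4 and 4, limma adjusted p = 0.46, with the block 0.020), and the second Mcm7 probe set gave 0.51 (with the block 0.0074). Cdt1, the partner of Cdc6 in loading, was at 9.35, 9.19, 9.65 and 9.86 untreated and at 9.71, 9.08, 10.67 and 10.62 after H2O2. It was higher in 3 of 4 pairs, with a difference of 0.51 ± 0.31 (SE, limma adjusted p = 0.63, with the block 0.086), and 0.70 at its second probe set (with the block 0.034). Its remaining probe set was dim (mean 2.87) and flat. Of the pairs with less lys control, replicates 3 and 4, both Mcm7 (0.65, limma adjusted p = 0.0029) and Cdt1 (0.89, 0.00069) passed, and in replicates 1 and 2 alone neither did (0.34 and 0.12).

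Geminin was lower in all 4 WT pairs, by 0.17 to 0.94, with a mean difference of −0.38 that did not pass. Mcm2, the helicase subunit that also binds histones, was at 8.16, 7.99, 8.49 and 8.42 untreated and at 7.54, 6.62, 8.68 and 8.21 after H2O2, lower in 3 of 4 pairs (mean −0.50). The remaining helicase subunits Mcm3 (0.03), Mcm4 (−0.32), Mcm5 (0.23) and Mcm6 (0.02) did not pass in either fit. The median of the 10 members was −0.15 against 0.0155 over all probe sets, with 5 members above 0 and 5 below.

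**Figure D2:**
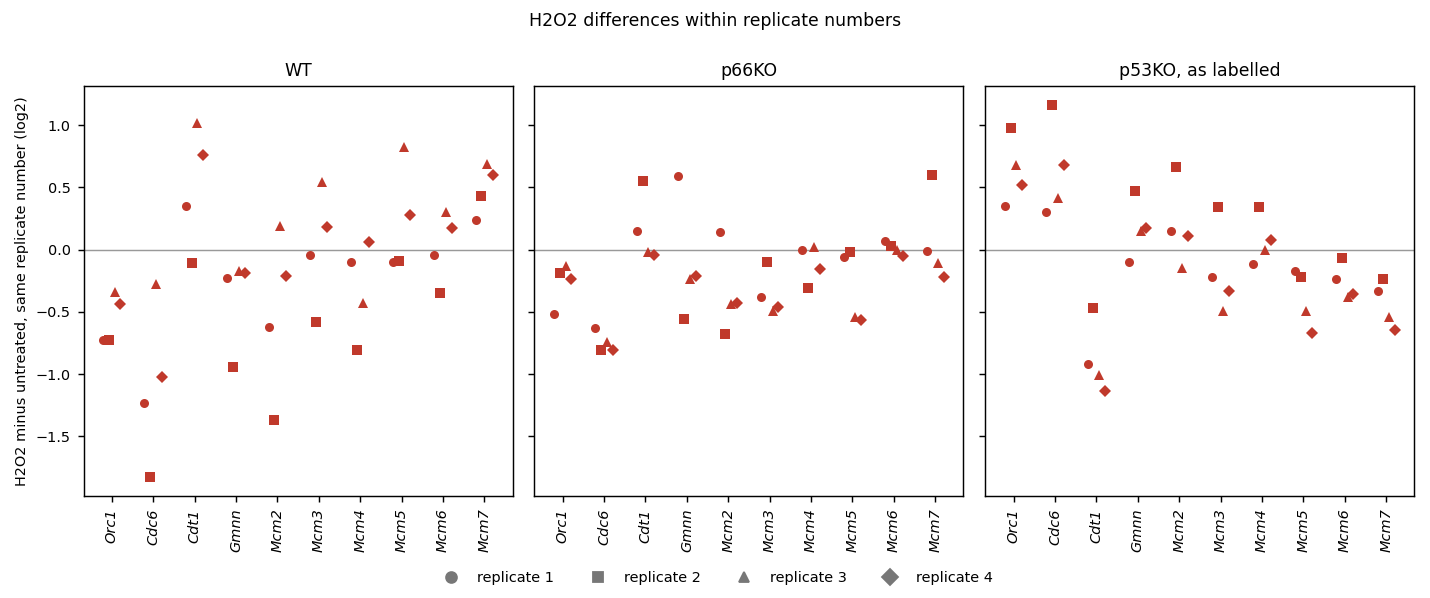
Paired log2 differences, H2O2 minus untreated, for each member and replicate number in WT, p66KO and p53KO MEFs, with the p53KO arrays taken as labelled. Cdc6 and Orc1 lie below 0 in all 4 WT and all 4 p66KO pairs and above 0 in all 4 p53KO pairs as labelled.

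Genes around the licensing factors were read from lists of known function. Of 23 other origin factors measured, 1 rose and 1 fell in WT cells after H2O2, where 4.95% of all genes passed. The kinase Cdc7, which with Dbf4 fires loaded origins, fell by 1.87 (limma adjusted p = 0.0015), and the origin subunit Orc5 rose by 0.71 (0.020). Among 12 regulators of licensing protein turnover, Skp2 (−1.17, adjusted p = 0.00047), a ubiquitin ligase subunit that recognises Cdt1, and Fbxo5 (−1.25, 0.047), an inhibitor of the anaphase-promoting complex, fell and none rose. Of 26 replication fork enzymes only the flap nuclease Dna2 passed (−1.14, 0.037). Of 29 E2F and Rb regulators, the repressor E2f8 (−1.27, 0.00034) and E2f5 (−0.69, 0.0059) fell and Cdkn1a, the cyclin-dependent kinase inhibitor p21, rose (1.27, 0.00089). The 12 proliferation markers of G2 and mitosis had a median change of −0.52 with 0 called by limma and 7 lower with the block, and their summed log2 levels ran from 104.6 to 108.6 untreated and from 94.44 to 103 after H2O2. The part of these markers in the members' values was not tested.

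In p66KO MEFs the question was whether the licensing factors changed with H2O2 when p66 was missing. None of the 10 passed in limma, against 0.0178% of all probe sets. At an unadjusted p under 0.05 there were 0 (4.41% of probe sets), with the block 0 (0.12% higher, 0.0488% lower), and without moderation 0 (0.0111%). Cdc6 was at 7.36, 6.60, 7.84 and 7.99 untreated and at 6.73, 5.79, 7.10 and 7.19 after H2O2. By replicate number it was lower in all 4 pairs, by 0.63 to 0.81, although numbers 3 and 4 each correlated best with the other. The interval of the mean difference of −0.75 ran from −1.59 to 0.09 (95%, limma adjusted p = 1, with the block 0.22). Orc1 (−0.27), Mcm3 (−0.36) and Mcm5 (−0.30) were also lower in all 4 pairs, whereas Mcm7 (0.07) and Cdt1 (0.16) went both ways. p66KO H2O2 replicate 2 was the lowest of its group for Mcm2 (7.35), Mcm6 (9.17) and Gmnn (7.77). Without both p66KO arrays numbered 2, none of the members passed.

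The difference between the WT and p66KO responses was tested directly. In limma 0 of 10 members passed, against 0.00222% of probe sets, with 0 at an unadjusted p under 0.05 (3.05%), 0 with the block (0%) and 0 without moderation (0.00222%). For Cdc6 the p66KO response minus that of WT was 0.34 with a 95% interval of −0.85 to 1.53, for Orc1 0.29 (−0.23 to 0.82), for Mcm7 −0.43 (−1.16 to 0.31) and for Cdt1 −0.34 (−1.26 to 0.58). For Cdc6 the interval holds 0 as well as a difference as large as the whole WT response. In replicates 3 and 4 alone the difference passed for Mcm7 (−0.81, limma adjusted p = 0.032) and Cdt1 (−0.92, 0.026), and in replicates 1 and 2 alone it was −0.04 and 0.23 (adjusted p = 1 for both). Untreated p66KO and WT cells also gave 0 called members in limma (0% of probe sets), 0 at an unadjusted p under 0.05 (1.32%) and 0 without moderation (0%), with changes from 0.003 for Gmnn to 0.32 for Mcm3.

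The p53KO arrays need a statement on their labels. Gadd45a and Atf3, genes of the stress response, rose with H2O2 in WT MEFs (mean log2 level of Gadd45a 6.69 untreated and 9.90 after H2O2, of Atf3 5.79 and 8.65). In p53KO MEFs the arrays labelled untreated had the high levels (Gadd45a 9.62, Atf3 8.88) and those labelled H2O2 the low ones (6.57 and 5.98). Cdkn1a, a p53 target, was at 6.387 to 8.047 on all p53KO arrays and at 10.319 to 12.331 on all others. The knockouts were not checked by their own transcripts: that of p53 is not analysed here, and the Shc1 probe sets do not tell p66 from the other products. The p53KO arrays are called the p53KO arrays labelled untreated and labelled H2O2, and the members' values are given as labelled, with those under exchanged labels beside the differences that the text turns on. Exchange turns the sign of any difference between the p53KO groups, and counts over gene lists are given as labelled.

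As labelled, Orc1 was the 1 member of 10 that passed in limma between the p53KO groups, against 4.56% of probe sets in either direction and 2.11% that, like Orc1, were higher. With exchanged labels 2.45% are higher and 2.11% lower. It was at 6.02, 5.52, 5.5 and 5.67 on the arrays labelled untreated and at 6.37, 6.5, 6.18 and 6.19 on those labelled H2O2. The groups do not overlap. The difference was 0.63 ± 0.18 (SE, n = 4 and 4, limma adjusted p = 0.042, with the block 0.0093), so with exchanged labels it is −0.63 at the same p. The call was lost, with adjusted p between 0.059 and 0.122, when any 1 of 7 of the 8 p53KO arrays was left out, that is all but the array labelled untreated replicate 1. The second Orc1 probe set showed −0.03.

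Arrays did not overlap for 4 of 10 members, Orc1, Cdc6, Cdt1 and Mcm5, against 9.96% of probe sets. For 4 against 4 arrays, non-overlap by itself fixes the exact permutation p at its smallest value of 0.029 (unadjusted), so this p adds nothing to it. Cdc6 was at 7.15, 6.59, 7.43 and 7.26 on arrays labelled untreated and at 7.45, 7.76, 7.83 and 7.95 on those labelled H2O2 (0.64 ± 0.41 SE, limma adjusted p = 0.45, with the block 0.068). Cdt1 was at 10.71, 10.23, 11.11 and 11.24 on arrays labelled untreated and at 9.79, 9.76, 10.10 and 10.11 on those labelled H2O2 (−0.88 ± 0.31 SE, limma adjusted p = 0.12, with the block 0.0040). Every array labelled untreated was thus higher for Cdt1 and lower for Cdc6 than every array labelled H2O2. Mcm5 differed by −0.39 (adjusted p = 0.47). Mcm7 differed by −0.44 (0.39, with the block 0.030) and was lower in all 4 pairs, by 0.24 to 0.65. With the block, 1 member passed as higher (Orc1, 4.81% of probe sets) and 2 as lower (Cdt1 and Mcm7, 4.92%). With exchanged labels the differences are 0.88 for Cdt1, 0.44 for Mcm7, 0.39 for Mcm5 and −0.64 for Cdc6, and the WT responses of the same genes were 0.51, 0.49, 0.23 and −1.09. Around them, where 5.88% of all genes passed, Cdc7 (1.5), Skp2 (0.76), E2f8 (1.35), E2f5 (0.835) and Dna2 (1.15) passed as higher on arrays labelled H2O2. Orc5 (−0.68) and Cdkn1a (−1.02) passed as lower there. The summed G2 and mitosis markers ran from 106.2 to 108.4 on arrays labelled untreated and from 109.8 to 113.9 on those labelled H2O2.

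The difference between the p53KO and WT responses, as labelled, passed in limma for 2 of 10 members, against 10.8% of probe sets (5.17% higher, 5.63% lower). It was 1.19 ± 0.25 for Orc1 (SE, limma adjusted p = 0.0025) and −1.39 ± 0.44 for Cdt1 (0.046). With the replicate block, Cdc6 (1.73, limma adjusted p with the block 0.00080, without it 0.056) and Mcm7 (−0.93, 0.0012, without it 0.10) passed as well, which makes 2 higher (9.2% of probe sets) and 2 lower (9.29%). Leaving out 1 array at a time kept Orc1 in all 16 fits (1.01 to 1.32) and lost Cdt1 in 12 of 16 (−1.70 to −1.17, adjusted p up to 0.11), all but those without WT untreated replicate 4, WT H2O2 replicate 1 or 2, or p53KO labelled untreated replicate 2. Cdc6 passed without WT untreated replicate 2 (1.93, limma adjusted p = 0.040) or WT H2O2 replicate 3 (2.11, 0.011) or 4 (1.91, 0.044), and Mcm7 without WT H2O2 replicate 1 (−1.10, 0.049). With the p53KO labels exchanged none passed in limma (0% of probe sets higher, 0.02% lower), and the differences were −0.07 for Orc1, 0.38 for Cdt1, 0.45 for Cdc6 and −0.05 for Mcm7, each with an adjusted p of 1. This comparison shares its WT and p53KO arrays with those of either genotype alone.

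Between untreated p53KO and WT MEFs, as labelled, Cdt1 passed in limma, 1 of 10 members against 4.75% of probe sets (2.86% higher). All 4 p53KO arrays labelled untreated (10.23 to 11.24) lay above the 4 untreated WT arrays (9.19 to 9.86), and the difference was 1.31 ± 0.31 (SE, n = 4 and 4, 2.47-fold, limma adjusted p = 0.015, second probe set 1.42, 0.0092). The call was lost without WT untreated replicate 1 (1.25, adjusted p = 0.051) or 2 (1.2, 0.056), or without p53KO untreated replicate 3 (1.21, 0.052) or 4 (1.17, 0.060). Mcm5 (0.80, 0.073) and Mcm7 (0.69, 0.13) also did not overlap between the groups, which makes 3 of 10 against 10.4% of probe sets. With array set (replicates 1 and 2, or 3 and 4) as a block both passed (Mcm5 0.0047, Mcm7 0.0013). The other helicase subunits differed by 0.15 to 0.58 and Orc1 by −0.31, and none passed. Around them 4 of 23 other origin factors passed as higher and none as lower, among them Mcm10 (1.04, 0.0093), which joins the helicase when origins fire, where 6.29% of all genes passed. With exchanged labels Cdt1 differed by 0.42 (limma adjusted p = 0.91), all 10 members differed by 0.22 to 0.52, and none passed (0.0111% of probe sets higher, 0.0733% lower).

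**Figure D3:**
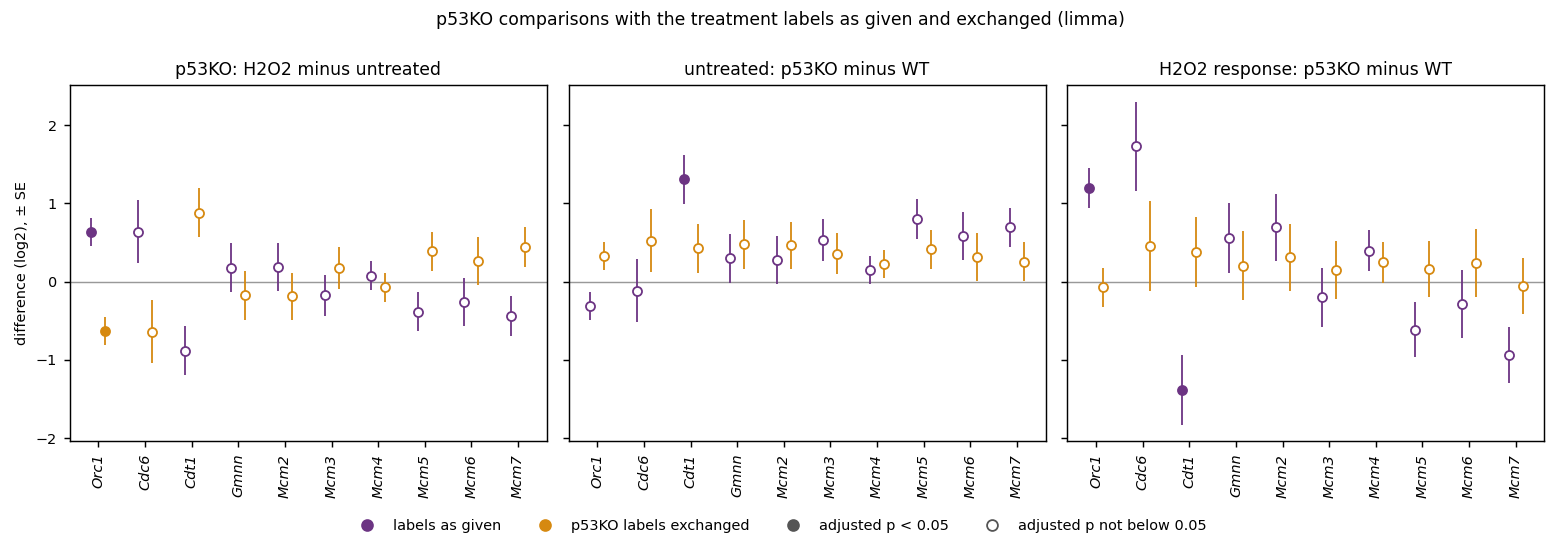
Log2 differences of the 10 members in the p53KO comparisons, with the treatment labels as deposited and exchanged. Bars show ± SE and not 95% intervals. Between the p53KO groups, exchange turns the sign of every member's difference by construction. The difference from the WT response goes from 1.19 to −0.07 for Orc1 and from −1.39 to 0.38 for Cdt1.

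The question of the Doxo arrays was how a DNA-damaging drug changed the same genes. In WT MEFs 3 of 10 members passed in limma, against 35% of all probe sets, with Mcm5 and Mcm7 higher (21.9% higher) and Mcm4 lower (13% lower). In p66KO MEFs the same 3 genes passed in the same directions, against 40.7% (26.6% higher, 14.1% lower). The WT and p66KO comparisons have their own untreated arrays, which each shares with the H2O2 comparison of its genotype. The members' share of calls was thus near or below that of all probe sets. By the lys control the Doxo arrays (4.15 to 4.44) lay below replicates 1 and 2 (4.97 to 5.94), and their range met that of replicates 3 and 4 (3.01 to 4.15). Doxo and array set cannot be told apart, and 2 arrays against 4 cannot go below an exact permutation p of 0.067.

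Mcm4, a subunit of the helicase core, was at 9.04 and 8.32 on the WT Doxo arrays, below the untreated arrays at 9.60, 9.51, 9.66 and 9.57. In p66KO cells it was at 8.65 on both Doxo arrays, below 10.01, 9.56, 9.61 and 9.71. The differences were −0.91 ± 0.22 (SE, n = 2 and 4, 1.88-fold lower, limma adjusted p = 0.0038) and −1.07 ± 0.22 (2.1-fold lower, 0.00085). Without WT Doxo replicate 2 the WT difference was −0.55 (0.17).

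Mcm5 was at 8.41 and 8.80 after Doxo against 7.53, 7.45, 7.82 and 7.96 in WT MEFs, and at 8.98 and 9.01 against 7.53, 7.22, 8.22 and 8.44 in p66KO MEFs. The differences were 0.91 ± 0.31 (SE, limma adjusted p = 0.026) and 1.14 ± 0.31 (0.0059), and its second, dimmer probe set gave 0.81 and 1.31. Mcm7 was at 10.04 and 9.96 after Doxo in WT and at 10.10 and 10.04 in p66KO MEFs, and no untreated array of either genotype exceeded 9.55. Its differences were 1.04 ± 0.31 (SE, 2.06-fold, limma adjusted p = 0.012) and 1.06 ± 0.31 (0.0098). The WT call of Mcm5 was lost without WT untreated replicate 1 (0.86, adjusted p = 0.055) or 2 (0.83, 0.060) or WT Doxo replicate 2 (0.72, 0.23), and that of Mcm7 without either WT Doxo array (1.0, 0.074, and 1.08, 0.074) and, in p66KO cells, without Doxo replicate 1 (1.03, 0.064) or 2 (1.09, 0.057). Fitted to the p66KO arrays compared and no others, neither passed in p66KO cells (Mcm5 adjusted p = 0.053, Mcm7 0.075).

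Doxo arrays did not overlap with untreated ones for 6 of 10 members in WT (58.8% of probe sets) and 5 of 10 in p66KO cells (58%). Cdt1 (0.70 and 0.75) and Mcm2 (0.74 and 0.55) were among these and did not pass. Mcm3 (0.43 and 0.28), Mcm6 (0.40 and 0.28), Cdc6 (0.29 and 0.13), Gmnn (−0.05 and 0.08) and Orc1 (−0.30 and −0.20) did not pass either. The median over all probe sets moved by 0.134 in WT and 0.152 in p66KO cells (0.0951 and 0.101 after quantile scaling), against member medians of 0.42 and 0.28. The p66KO response minus that of WT lay between −0.19 and 0.23 for all 10 members. In limma 0 passed (0% of probe sets), with 0 at an unadjusted p under 0.05 (2.39%) and 0 without moderation (0%).

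**Figure D4:**
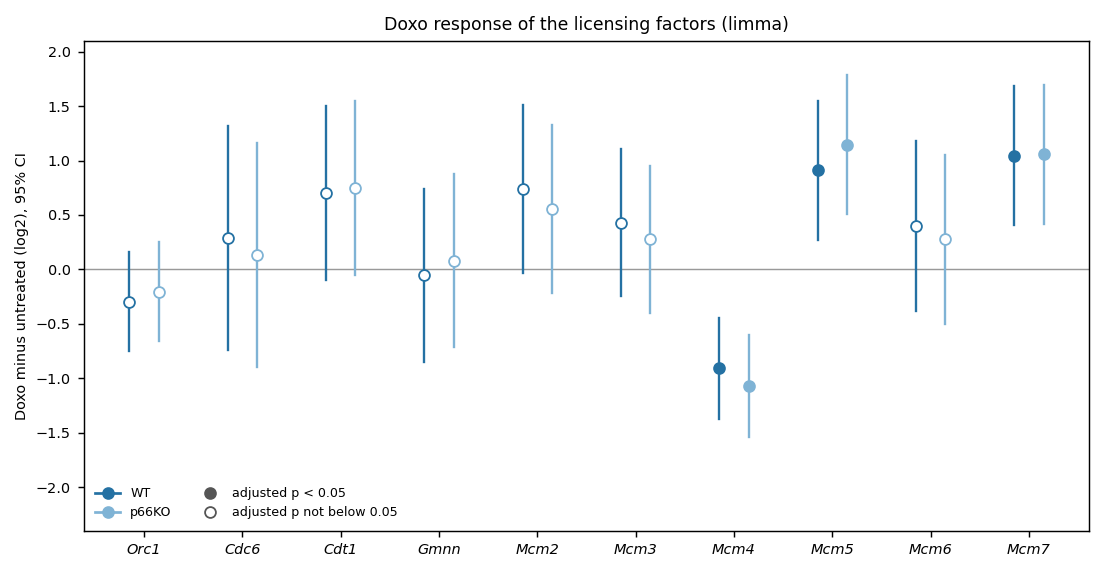
Log2 differences, Doxo minus untreated, of the 10 members in WT and p66KO MEFs, with 95% intervals and a line at 0. Mcm4 lies near −1 and Mcm5 and Mcm7 near 1 in both genotypes, and the other 7 members have intervals that cross 0.

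Of 23 other origin factors, 8 fell in WT and the same 8 fell in p66KO cells, and 2 and 3 rose. The share that passed was near that of all genes, which was 43.1% in WT and 49.2% in p66KO cells. Those that fell include both parts of the firing kinase, Cdc7 (−2.33 and −2.39) and Dbf4 (−2.36 and −2.03), the origin subunits Orc4 (−2.95 and −2.37) and Orc2 (−1.13 and −0.90), and Topbp1 (−1.74 and −1.82), which recruits firing factors. Of 12 turnover regulators 8 fell and 2 rose in each genotype, among them Skp2 (−1.45 and −1.52), Fbxo5 (−2.64 and −2.77) and Dtl (−1.31 and −1.5), the receptor that marks Cdt1 for destruction. Among 29 E2F and Rb regulators, 4 rose and 10 fell in WT, and 6 rose and 10 fell in p66KO cells. Their median changes were −0.354 and −0.0937, against 0.187 and 0.213 over all genes. The activator E2f1 was among those that rose (0.82 and 1.03) and E2f3 among those that fell (−1.37 and −1.74). Fork enzymes went both ways, 3 up and 4 down in WT and 7 up and 3 down in p66KO cells. Of the 12 markers of G2 and mitosis, 3 fell in each genotype and none rose. These were Bub1 (−3.62 and −3.07), Mki67 (−3.35 and −2.91) and Top2a (−1.67 and −1.42). The median change of all 12 was −0.07 in WT and 0.12 in p66KO cells. The summed log2 levels of all 12 include these 3 large falls. They were 97.96 to 98.48 on WT Doxo arrays against 104.6 to 108.6 untreated. In p66KO cells they were 99.13 to 99.78 against 98.56 to 108.8, and overlap. Summed fibroblast markers were lower on the Doxo arrays without overlap, at 106.1 to 109.8 against 111.7 to 125 in WT and 107.8 to 109.8 against 115.4 to 122.7 in p66KO cells. Epithelial markers were higher without overlap, at 34.38 to 35.22 against 28.52 to 32.27 and at 36.09 to 36.25 against 29.53 to 33.99, as were those of skeletal muscle, at 31.29 to 33.45 against 27.2 to 30.77 and at 30.82 to 34.85 against 27.21 to 29.15, and of endothelium, at 22.45 to 22.46 against 21.2 to 22.15 and at 22.27 to 22.53 against 21.34 to 21.68. Macrophage markers, at 51.47 to 56.02 against 39.68 to 54.11 and at 54.22 to 56.04 against 49.48 to 54.09, overlapped in WT and not in p66KO cells. Of single probe sets, 58.8% in WT and 58% in p66KO cells did not overlap either. In WT and p66KO cells, 3 and 4 of 12 fibroblast markers passed as lower. As higher, 0 and 1 of 6 epithelial, 0 and 3 of 6 skeletal muscle and 0 and 0 of 6 endothelial markers passed. The endothelial medians (0.15 and 0.131) lay below those of all genes (0.187 and 0.213). The part of these marker lists in the members' differences was not tested.

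The shape of a member's profile over the 8 group means was compared with the mean of the other 9. Mcm3 (r = 0.93), Mcm6 (0.88) and Mcm2 (0.85) were closest to it, Cdt1 (0.52), Mcm7 (0.46) and Orc1 (0.24) less so, and Mcm4 ran against it (−0.41). Among 7466 other probe sets whose group means span at least 1 log2 unit, the 6 genes with a pattern most like the members' mean were Mybl2 (r = 0.98), Shmt1 (0.966), Traip (0.935), Cdca5 (0.934), Cdc25b (0.932) and Mmd (0.922). These correlations are over 8 group means that share arrays and scaling, and are given as a description.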

How the data were processed

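RNA of each MEF preparation was hybridised to an Affymetrix MG-430 PM array, which reads the 3′ end of transcripts. The authors deposited log2 expression values made by RMA (background correction, quantile scaling and summary per probe set) in Partek 6.5, and intensities before that step were not used here. Precision is limited by the number of arrays, which is 4 per group and 2 per Doxo group. Array medians ran from 4.353 to 4.464.

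Groups were taken from the sample labels. The 104 controls among the 45141 probe sets were not tested. The deposited log2 values of 45037 probe sets on 28 arrays were fitted with 8 group means in limma 3.58.1 (R 4.3.3, data.table version 1.17.8), with Benjamini-Hochberg adjustment over all of them and a call at an adjusted p under 0.05. Genes were named from the platform annotation, with older symbols updated, and probe sets with several symbols were left out. Intervals are 95% intervals of this fit. The code was tested on simulated data.

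After removal of group means, untreated and H2O2 arrays with the same number and genotype correlated at 0.508 to 0.754, so the numbers were taken as pairs. In p66KO cells, arrays numbered 3 and 4 each correlated best with the other of these numbers, so the pairing is less certain there. The fit with pair as a fixed block is given where it changes a call. Doxo arrays (−0.0766 to 0.0474) were not paired. p53KO arrays labelled untreated and H2O2 were also exchanged. Other alternatives were the test without moderation, the study's thresholds (unadjusted p under 0.05 and 1.5-fold), other array subsets and scalings, a filter on the lowest 40% of probe sets, and each array left out in turn. Named genes are the 10 members, up to 4 genes per list with the lowest p in the WT H2O2 response, and 6 genes of like pattern. List genes named beyond these (Dbf4, Orc2, Orc4, Dtl, Mcm10, E2f1, E2f3, Bub1, Top2a) were chosen after their values were seen, as genes that passed. The members and gene lists were chosen with earlier results of these data known.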

Additional observations from a re-analysis of the deposited data

Results flagged for a closer look

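In groups of 4 arrays, a single array stood apart from the rest of its group, by the ratio of its gap to the range, in 6 of 60 tests. Chance gives about 1 in 20 per test. The tests share arrays on which the members moved together, so the count cannot show an excess over chance. Mcm2 on p66KO H2O2 replicate 2 was at 7.35 (others 8.26 to 8.44), Gmnn on the same array at 7.77 (others 8.92 to 9.07) and Mcm6 on it at 9.17 (others 10.19 to 10.30). Mcm6 was also low on p66KO untreated replicate 2, at 9.14 (others 10.19 to 10.32), and on p53KO replicate 2 labelled untreated, at 9.83 (others 10.50 to 10.61). Mcm4 was high on p53KO replicate 1 labelled untreated, at 10.08 (others 9.61 to 9.64).

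The H2O2 response differed between p53KO and WT MEFs, as labelled, by 1.19 for Orc1 and by −1.39 for Cdt1, tested as an interaction in limma. With the p53KO labels exchanged these differences were −0.07 and 0.38.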

How the results depend on the processing

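Of the values under other settings, 2056 kept their side of the threshold, 60 newly passed and 46 no longer passed. A further 8, which passed in at least 1 of the fits compared, turned direction. Direction was not compared for values that passed in neither fit, so the 2056 include values that changed sign. Counts below are member genes called. The share of all probe sets called under the same setting is not given beside them. They therefore describe how the calls moved and do not set the members against other genes. For Doxo that share was already 35% in WT and 40.7% in p66KO cells in the main fit. With the replicate block the WT H2O2 response had 1 higher and 2 lower, the p53KO response 2 lower and the p53KO minus WT difference 2 higher and 2 lower. The block on numbers that do not pair the arrays gave 7 higher (WT) and 5 higher (p66KO) for Doxo and 4 higher for p53KO against WT. A block on array set gave 1 higher and 1 lower for WT H2O2, 2 lower for p53KO, 3 higher for p53KO against WT, and 2 and 2 for p53KO minus WT. The paired sign test of 4 pairs cannot go below an exact p of 0.125.

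For the p53KO H2O2 response, the 1 higher became 0 without moderation, with the compared groups alone, after quantile scaling, in replicates 1 and 2 alone and against untreated WT. The study's thresholds gave 1 lower and replicates 3 and 4 alone 4 lower. Exchanged labels gave 0 higher and 1 lower, with Orc1 at −0.63, Cdt1 at 0.88 and Mcm7 at 0.44, and with the block (added after seeing the data) 2 higher and 1 lower. For p53KO minus WT, the 1 lower became 0 without moderation, with the compared groups alone and after quantile scaling. The first pairs alone (replicates 1 and 2) gave 0 and 0, the last pairs alone (3 and 4) 2 higher and 5 lower, the study's thresholds 2 and 2, and exchanged labels 0 and 0 with or without the block (Orc1 −0.0736, Cdt1 0.38). Dim probe sets left out gave 2 higher, and the probe set with the lowest p 2 lower. For p53KO against WT untreated, the 1 higher became 3 by the study's thresholds, 2 with the compared groups alone, 4 in the last pairs (replicates 3 and 4) and 0 in the first pairs (1 and 2) and with exchanged labels. The study's thresholds gave 1 lower for WT H2O2. Replicates 3 and 4 alone gave 2 higher for WT H2O2 and 2 lower for p66KO minus WT. WT Doxo had 4 higher with the compared groups alone and 1 without the p53KO arrays, and p66KO Doxo 0 higher with the compared groups alone. The cause was not tested in any of these.

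Leaving out 1 array at a time gave 0 to 0 higher and 0 to 2 lower for WT H2O2, 0 to 1 higher and 0 to 0 lower for p53KO H2O2 and for p53KO against WT, 1 to 2 higher and 0 to 2 lower for p53KO minus WT, 0 to 2 higher and 0 to 1 lower for WT Doxo, 1 to 2 higher and 1 to 1 lower for p66KO Doxo, and 0 to 0 in the p66KO H2O2 response, p66KO against WT and both p66KO minus WT differences. A fit that leaves a Doxo group with 1 array assumes that it varies like the other groups.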
